A study of Mus musculus with 13 samples.

Results

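The 41 genes described here are those of glycolysis and of the response to low oxygen, chosen by name and by what they are known to do, out of 21100 genes in the table of 13 mouse basal cell carcinomas (BCC). They comprise 3 subunits of the hypoxia-inducible factors, 2 oxygen sensors, 4 transporters of glucose and lactate, 11 genes of upper glycolysis, 7 of lower glycolysis and pyruvate use, 2 carbonic anhydrases, 2 secreted factors, 3 mitochondrial targets of the hypoxia response, 3 collagen hydroxylases and 4 further hypoxia targets. All 41 were in the table, had a value in every tumor and passed the filter on low counts, and the lowest count of any of them in any tumor was 4.

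Bulk RNA sequencing had been done on 9 genetically engineered tumors (GEM-BCC) from 7 mice and on 4 transplanted tumors (Tp-BCC) from 4 mice, to compare the transplanted model with its parent. GEM-BCC tumors grew within the skin of female Ptch1+/- K14-CreER2 p53fl/fl mice after 3 injections of 300 µg tamoxifen and 1 X-ray dose of 4 Gy, and the K14 promoter restricts the loss of p53 to basal keratinocytes. Tp-BCC tumors grew under the skin of female Ptch1+/-p53fl/fl mice, which carry the same Ptch1 and p53 alleles without the Cre driver, from 2000000 inoculated cells of a line that goes back to 1 GEM-BCC tumor. Tumors GEM2 and GEM3 shared a mouse, as did GEM7 and GEM8. All GEM-BCC libraries were of batch 1 and all Tp-BCC libraries of batch 2, so model and batch cannot be told apart.

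Cells that lack oxygen stop degrading the alpha subunits of the hypoxia-inducible factors. Prolyl hydroxylases, which need oxygen, normally mark these subunits for destruction, and the stabilized subunit pairs with Arnt and binds DNA at sites with the core ACGTG or GCGTG. Its targets raise glucose uptake and glycolysis, divert pyruvate from the mitochondria to lactate, and include Vegfa, the main signal for vessel growth. Tumors often run glycolysis at a high rate even where oxygen is present.

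The promoters of 6 of the genes are given because their levels carry the comparisons that follow: the 4 genes lower in Tp-BCC (Egln3, Pgk1, Car12 and P4ha1) and 2 that stood far above the rest in tumor GEM2 (Slc2a1 and Bnip3). Each is the RefSeq sequence of the 250 bases upstream of the gene start in mouse build GRCm38.p6, written 5′ to 3′ on the strand of the gene. Capitals mark ACGTG or GCGTG on either strand, where the reverse strand reads CACGT or CACGC, and matches that overlap run together. The count table was made on GRCm39, and coordinates were not carried over.
Egln3 promoter, chr12:54203875-54204124, minus strand: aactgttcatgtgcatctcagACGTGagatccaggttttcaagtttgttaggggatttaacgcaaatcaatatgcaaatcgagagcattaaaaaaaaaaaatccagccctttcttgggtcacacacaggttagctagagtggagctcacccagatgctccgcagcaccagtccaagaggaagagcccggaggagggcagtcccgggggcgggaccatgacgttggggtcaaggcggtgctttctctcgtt
Pgk1 promoter, chrX:106186850-106187099, plus strand: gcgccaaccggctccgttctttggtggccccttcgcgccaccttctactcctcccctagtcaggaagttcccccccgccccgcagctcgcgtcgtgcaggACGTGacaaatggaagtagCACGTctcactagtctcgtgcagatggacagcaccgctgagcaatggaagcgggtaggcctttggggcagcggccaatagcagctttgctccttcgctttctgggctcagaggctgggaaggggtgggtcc
Car12 promoter, chr9:66713436-66713685, plus strand: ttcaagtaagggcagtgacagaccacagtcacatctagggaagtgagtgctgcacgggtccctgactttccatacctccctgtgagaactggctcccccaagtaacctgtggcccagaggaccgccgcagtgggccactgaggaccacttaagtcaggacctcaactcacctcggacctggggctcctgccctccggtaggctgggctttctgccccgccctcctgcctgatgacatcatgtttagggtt
P4ha1 promoter, chr10:59323046-59323295, plus strand: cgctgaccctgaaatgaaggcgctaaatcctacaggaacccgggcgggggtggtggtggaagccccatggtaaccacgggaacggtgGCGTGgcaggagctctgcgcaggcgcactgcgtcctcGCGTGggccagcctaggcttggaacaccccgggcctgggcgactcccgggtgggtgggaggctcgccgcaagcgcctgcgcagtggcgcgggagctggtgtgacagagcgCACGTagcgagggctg
Slc2a1 promoter, chr4:119108495-119108744, plus strand: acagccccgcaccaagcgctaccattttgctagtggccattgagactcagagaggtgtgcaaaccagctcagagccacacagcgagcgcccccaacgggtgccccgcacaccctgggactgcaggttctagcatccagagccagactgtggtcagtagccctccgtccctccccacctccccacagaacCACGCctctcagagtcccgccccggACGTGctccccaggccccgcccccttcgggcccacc
Bnip3 promoter, chr7:138909507-138909756, minus strand: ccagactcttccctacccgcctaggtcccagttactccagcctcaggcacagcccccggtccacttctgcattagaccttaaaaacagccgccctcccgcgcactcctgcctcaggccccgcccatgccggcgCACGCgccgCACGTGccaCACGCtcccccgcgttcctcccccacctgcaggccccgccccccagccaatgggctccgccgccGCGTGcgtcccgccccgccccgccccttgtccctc
These windows held 1 match for Egln3, 2 for Pgk1, 0 for Car12, 3 for P4ha1, 2 for Slc2a1 and 5 for Bnip3. Of the 41 genes 36 were in the promoter table, and 33 of them (91.7%) had at least 1 match in a window, against 59.5% of the 11441 tested genes found there and 41.5% of all 27025 symbols. ACGTG alone was found for 21 (58.3%), against 24.3% of tested genes. Some genes have several windows, and counted by window 41 of 52 (78.8%) held a match, against 38.6% of all 32851 windows. All windows include those of genes not tested here, which lowers that background, since tested genes held a match more often than all symbols. A match describes letters in the window and does not show a bound site. The 41 genes were chosen in part as known hypoxia targets, so a higher share of matches could follow from the choice. The backgrounds were not matched for GC content or for the number of windows per gene. Plod2, Bnip3l, Epas1, Ndrg1 and Slc2a3 were not matched to the table.

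Values are given as CPM, counts scaled to a common library size with TMM factors, which set aside the most divergent genes. A GEM-BCC library held 28075317 to 32629102 counts and a Tp-BCC library 15388027 to 17494912. BCC and basal epithelial markers (Krt14, Krt5, Gli1, Ptch1, Trp63 and others) were present in every tumor. Their summed level was 12567 to 19011 CPM in GEM-BCC tumors and 9355 to 22311 CPM in Tp-BCC, and 0 of the 10 passed the edgeR test between models. Without TP1 and TP3, 2 of the 10 were higher and 2 lower, and 1 was lower without TP2 and TP4 or with the GC trend removed. Of 10 cell division genes 4 were higher and 0 lower, against 11.1% and 8.35% of all tested genes. The cell division counts were 4 and 2 without TP1 and TP3 (19.1% and 23.8%) and 4 and 0 without TP2 and TP4 (5.87% and 4.51%). They were 6 and 0 with the GC trend removed (15.1% and 13.3%). Levels of transcripts rich in GC were shifted in opposite ways among the transplanted tumors. The Spearman correlation across genes between GC content and deviation of log2 CPM was negative in TP1 (−0.39) and TP3 (−0.47) and positive in TP2 (0.59) and TP4 (0.59). In GEM1 it was 0.37 and in the remaining GEM-BCC tumors −0.31 to −0.15. For the called genes, the marker lists and the ratios with an unadjusted p under 0.05, values are therefore also given without TP1 and TP3, without TP2 and TP4, or with the GC trend removed.

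Between models, 0 of the 41 genes were higher and 4 lower in Tp-BCC at an adjusted p-value under 0.05 (edgeR quasi-likelihood test with Benjamini-Hochberg adjustment over 14390 genes). Among all tested genes 11.1% were higher and 8.35% lower, or 19.4% in either direction, so the share of the genes that was lower was near the background. At an unadjusted p under 0.05, 2 were higher and 10 lower by edgeR, against 18.4% and 16.1% of all genes. DESeq2 called 1 higher and 8 lower after adjustment, against 13.1% and 12.9% of all genes, and 2 and 11 before it, against 18.5% and 18.9%. The log2 fold change (Tp-BCC over GEM-BCC) had a median of −0.22 and a range of −2.53 to 0.77 over the 41 genes, against a median of −0.03 over all tested genes, and was above 0 for 17 and below 0 for 24. None of the 41 separated the models without overlap of single tumors, whereas 9.95% of all tested genes did, 5.5% higher and 4.45% lower in Tp-BCC. Car12 was the only one past an absolute log2 fold change of 2 as well, a mark passed by 5.57% of all genes.

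**Figure D1:**
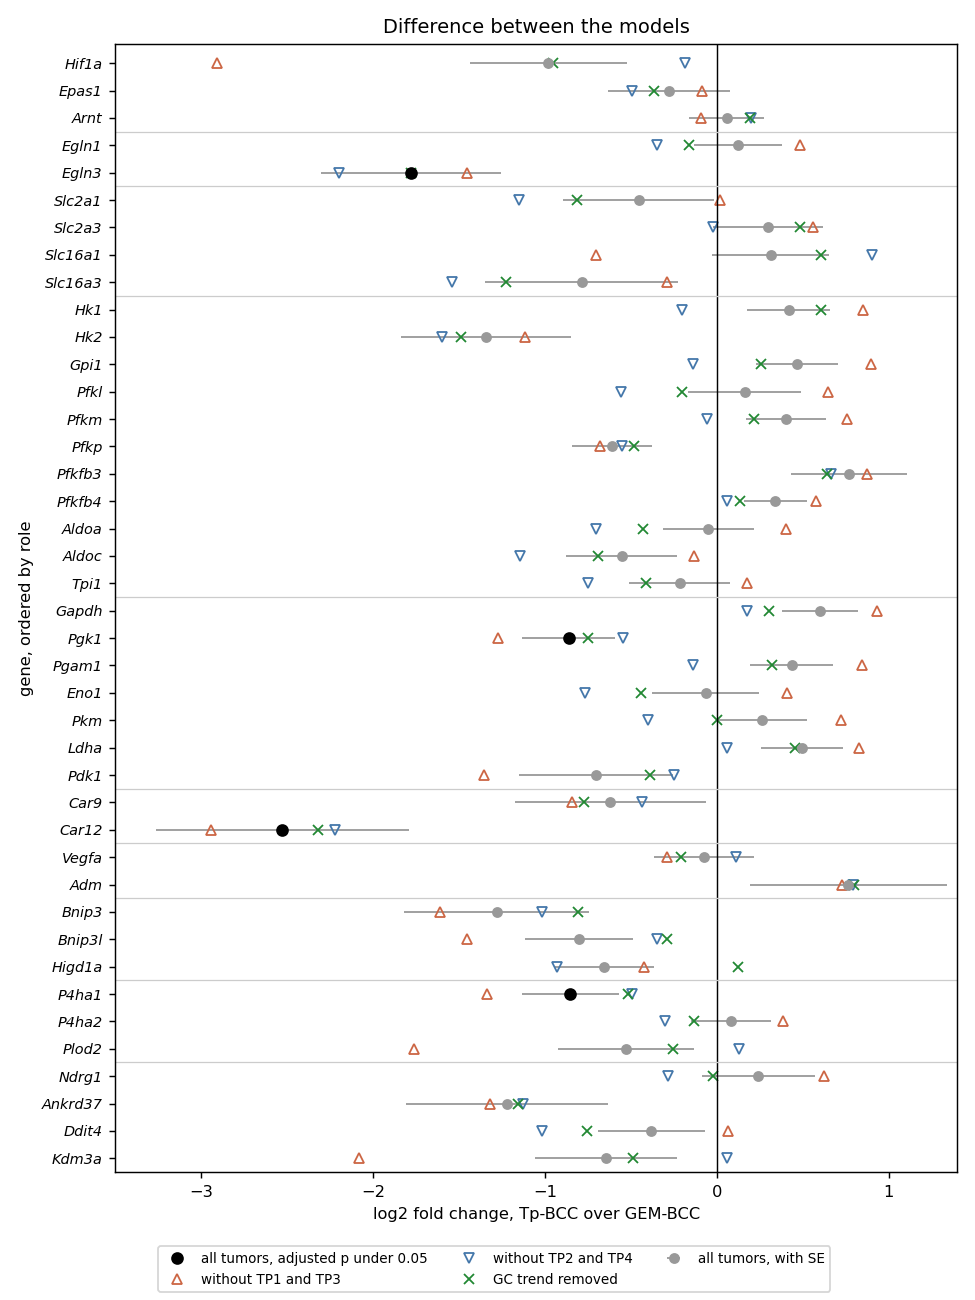
Log2 fold change (Tp-BCC over GEM-BCC) of each of the 41 genes, in order of role. Grey points with bars are all 13 tumors with the SE of the fit, black points have an adjusted p under 0.05, and triangles and crosses repeat the fit without TP1 and TP3, without TP2 and TP4, or with the GC trend removed. Egln3, Pgk1, Car12 and P4ha1 are black and lie below 0, while for many glycolysis genes the up and down triangles lie on either side of 0.

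Of the hypoxia-inducible factors, Hif1a encodes the subunit present in most cells. It ranged in GEM-BCC from 109 to 184 CPM with a median of 117, and measured 108, 20.8, 130 and 15.1 CPM in TP1 to TP4. TP2 and TP4 lay far below every GEM-BCC tumor, TP1 just below the lowest of them and TP3 inside their range. The log2 fold change was −0.98 ± 0.46 (SE; adjusted p = 0.141, edgeR). It was −2.91 (adjusted p = 5.85e-05) without TP1 and TP3, −0.18 (0.644) without TP2 and TP4, and −0.95 (0.0159) with the GC trend removed, so the call depended on which transplanted tumors were kept. Hif1a has the lowest GC content of the 41 genes (41.3%).

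Epas1 encodes the second alpha subunit, HIF-2 alpha. Its levels were 24 to 88.6 CPM (median 33.9) in GEM-BCC and 30.0, 51.2, 32.9 and 32.3 CPM in the Tp-BCC tumors, which all lay within the GEM-BCC range (log2 fold change −0.28 ± 0.36, adjusted p = 0.607, edgeR). Arnt, the shared partner, differed by 0.06 on the log2 scale (adjusted p = 0.876). The log2 ratio of Epas1 to Hif1a within a tumor was −2.39 to −0.36 in GEM-BCC (mean −1.73) and −1.85, 1.29, −1.97 and 1.10 in TP1 to TP4. TP2 and TP4 lay above every GEM-BCC tumor and TP1 and TP3 inside their range, so the Tp-BCC mean describes none of the 4. The difference of the means was 1.37, with a 2-sided exact permutation p of 0.042 over 715 splits that became 0.126 after adjustment over 12 ratios. It was −0.18 (exact permutation p = 0.782) without TP2 and TP4, 2.93 (0.0182, the smallest p that 55 splits allow) without TP1 and TP3, and 0.79 (0.123) with the GC trend removed.

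Of the oxygen sensors, Egln3 encodes the prolyl hydroxylase PHD3 and is itself a hypoxia target. It reached 7.53 to 47.0 CPM (median 13.1) in GEM-BCC, with GEM6 and GEM2 highest, and 4.18, 8.55, 4.67 and 6.14 CPM in TP1 to TP4. Only TP2 reached the range of GEM-BCC. Egln3 was 3.43-fold lower in Tp-BCC (log2 fold change −1.78 ± 0.52, adjusted p = 0.0272, edgeR). The value with the GC trend removed was −1.78 (adjusted p = 0.0225), and adjusted p-values rose to 0.0713 without TP1, 0.0591 without TP3 and 0.0591 without TP4. It was −1.45 (0.112) without TP1 and TP3 and −2.20 (0.082) without TP2 and TP4. Egln1, which encodes PHD2, the main sensor in most cells, gave a log2 fold change of 0.12 (adjusted p = 0.766), and the ratio of Egln3 to Egln1 was lower in Tp-BCC by 1.64 on the log2 scale (difference −1.64, exact permutation p = 0.014, 0.0839 after adjustment over the 12 ratios). That difference was −1.70 without TP1 and TP3, −1.58 without TP2 and TP4 and −1.38 with the GC trend removed (exact permutation p = 0.0727, 0.0727 and 0.0308).

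**Figure D2:**
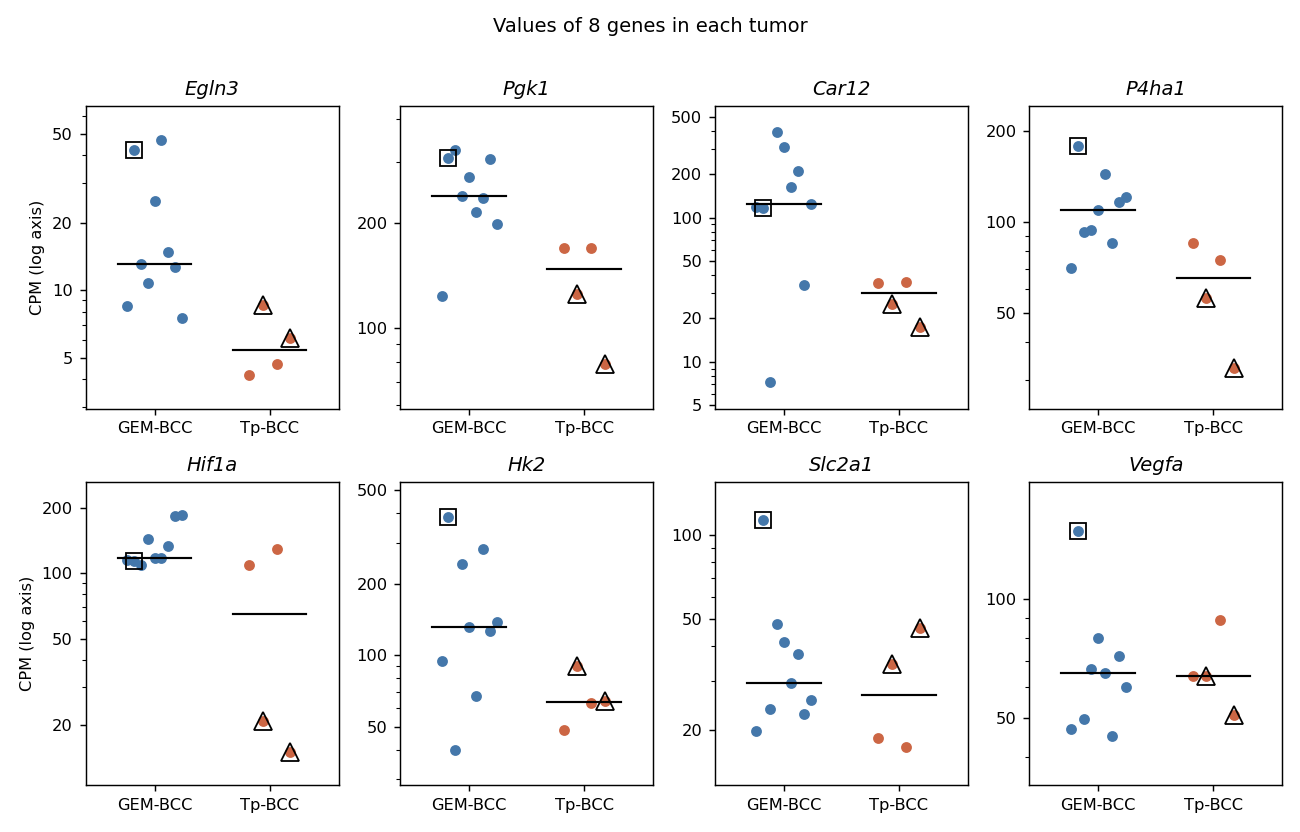
CPM on a log axis of 8 genes in each tumor, with GEM-BCC in blue, Tp-BCC in orange and a line at the median of each model. A square marks GEM2 and triangles mark TP2 and TP4, and GEM2 is highest for P4ha1, Hk2, Slc2a1 and Vegfa (149 CPM) while TP2 and TP4 lie far below TP1 and TP3 for Hif1a.

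Among transporters, Slc2a1 encodes GLUT1, the main glucose carrier of growing epithelial cells. GEM-BCC levels ran from 19.8 to 113 CPM with a median of 29.3, and Tp-BCC levels were 18.7, 34.4, 17.4 and 46.3 CPM. GEM2 stood alone at the top and the models overlapped (log2 fold change −0.45 ± 0.44, adjusted p = 0.487, edgeR). Slc2a3 (GLUT3) gave 0.30 (adjusted p = 0.532).

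The lactate carriers differed between the transplanted tumors as measured. Slc16a1 (MCT1) was at 18.5 to 42.8 CPM in GEM-BCC and at 52.8, 22.4, 48.6 and 10.9 CPM in TP1 to TP4. TP1 and TP3 exceeded every GEM-BCC tumor and TP4 was below all of them, and the log2 fold change was 0.31 (adjusted p = 0.537) with all tumors, 0.90 (0.0427) without TP2 and TP4 and −0.70 (0.118) without TP1 and TP3. Slc16a3 (MCT4), which exports lactate from glycolytic cells and is a hypoxia target, was low in both models, at 1.78 to 29.5 CPM in GEM-BCC and 3.47 to 12.5 CPM in Tp-BCC (log2 fold change −0.79, adjusted p = 0.334). With the GC trend removed, the mean log2 difference of TP2 and TP4 from TP1 and TP3 moved from −1.70 to −0.0023 for Slc16a1. For Slc16a3 it moved from 1.12 to 0.24. The log2 fold changes between models were then 0.61 for Slc16a1 (adjusted p = 0.085, edgeR) and −1.23 for Slc16a3 (0.103).

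In upper glycolysis 0 of 11 genes passed the test in either direction. The hexokinases trap glucose in the cell. Hk2, the inducible form common in tumors, was at 39.7 to 386 CPM in GEM-BCC (median 132) and at 48.5, 90.3, 62.7 and 64.2 CPM in Tp-BCC. All 4 Tp-BCC tumors were below the GEM-BCC median but inside the range (log2 fold change −1.34 ± 0.50, adjusted p = 0.0684, edgeR). The value was −1.21 (adjusted p = 0.0254) with counts summed per mouse and −1.49 (0.0389) with the GC trend removed. Hk1, the constitutive form, gave 0.42 (0.235), and the ratio of Hk2 to Hk1 averaged 1.22 in GEM-BCC and −0.19 in Tp-BCC on the log2 scale, with an exact permutation p of 0.00839 that became 0.0839 after adjustment over 12 ratios. The difference of −1.42 was −1.71 without TP1 and TP3, −1.13 without TP2 and TP4 and −1.64 with the GC trend removed (exact permutation p = 0.0364, 0.0909 and 0.00979).

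Phosphofructokinase, the committed step, has 3 subunit genes. Their log2 fold changes were 0.16 for Pfkl, 0.40 for Pfkm and −0.61 for Pfkp, with adjusted p-values of 0.757, 0.233 and 0.0763. Pfkfb3 and Pfkfb4 make fructose 2,6-bisphosphate, the activator of that step, and had log2 fold changes of 0.77 (adjusted p = 0.119) and 0.34 (0.206). Pfkfb3 lay at 10.1 to 40.3 CPM in GEM-BCC (median 17.4) and at 32, 43.7, 31.5 and 29.4 CPM in Tp-BCC, so all 4 Tp-BCC tumors exceeded the GEM-BCC median. The remaining genes, Gpi1 (phosphoglucose isomerase), Aldoa and Aldoc (aldolases) and Tpi1 (triosephosphate isomerase), had log2 fold changes of −0.55 to 0.47.

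In lower glycolysis and pyruvate use, 1 of 7 genes was lower and 0 were higher. Pgk1 encodes phosphoglycerate kinase, the first step that returns ATP. It ranged from 124 to 324 CPM (median 239) in GEM-BCC, where GEM1 was well below the others, and measured 170, 125, 170 and 78.7 CPM in the Tp-BCC tumors. These lay below every GEM-BCC tumor except GEM1. Pgk1 was 1.82-fold lower in Tp-BCC (log2 fold change −0.86 ± 0.27, adjusted p = 0.0373, edgeR). It was −1.27 (0.00909) without TP1 and TP3 and −0.54 (0.271) without TP2 and TP4. It kept an adjusted p of 0.0278 with the GC trend removed but had 0.0722 with counts summed per mouse. Leaving out GEM2, GEM4, GEM5, GEM7, GEM8, TP2 or TP4, each alone, ended the call (adjusted p 0.0517 to 0.102, with log2 fold changes of −0.87 to −0.71).

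As measured with all tumors, the step before it and those after it had positive or near-zero differences, but these depended on which transplanted tumors were kept. Gapdh, the step just before, was at 1219 to 2196 CPM in GEM-BCC and at 1929, 2719, 1497 and 3059 CPM in Tp-BCC (log2 fold change 0.60 ± 0.22, adjusted p = 0.0676, edgeR). It has many near-identical pseudogenes that could share its reads. Pgam1 gave 0.44, Eno1 −0.07 and Pkm 0.26. Without TP1 and TP3, Gapdh gave 0.93, Pgam1 0.85, Eno1 0.41 and Pkm 0.72. Without TP2 and TP4, the same genes in that order gave 0.17, −0.14, −0.77 and −0.40. With the GC trend removed they gave 0.30, 0.32, −0.44 and 0.0010. Ldha, which turns pyruvate into lactate, reached 274 to 543 CPM in GEM-BCC (median 346) and 413, 626, 376 and 712 CPM in Tp-BCC. TP2 and TP4 exceeded every GEM-BCC tumor and all 4 exceeded the GEM-BCC median (log2 fold change 0.49 ± 0.24, adjusted p = 0.155). The Ldha value was 0.83 (0.0222) without TP1 and TP3 and 0.060 (0.908) without TP2 and TP4. Pdk1, a kinase that inhibits pyruvate dehydrogenase, was at 13 to 88.2 CPM in GEM-BCC (median 37.5) and at 30.6, 22.2, 34.1 and 7.64 CPM in Tp-BCC, with TP4 below the others (log2 fold change −0.70 ± 0.45, adjusted p = 0.281).

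Per kilobase of the longest transcript, Gapdh had the highest mean level of the 41 genes in both models, 1068 CPM per kb in GEM-BCC and 1620 in Tp-BCC, followed by Pkm (473 and 568) and Aldoa (362 and 349). Car9 was lowest, at 0.415 and 0.269 CPM per kb.

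The carbonic anhydrases buffer the acid that glycolysis makes. Car9, a widely used hypoxia marker, was near the limit of detection in both models, at 0.286 to 1.63 CPM in GEM-BCC (median 0.618) and at 0.589, 0.643, 0.658 and 0.286 CPM in Tp-BCC. The ranges overlapped (log2 fold change −0.62 ± 0.55, adjusted p = 0.449, edgeR), and with 4 counts in TP4 a difference of moderate size was not detectable. Car12 was abundant in most GEM-BCC tumors, at 7.24 to 388 CPM with a median of 124, and measured 35, 25, 35.9 and 17.3 CPM in TP1 to TP4. GEM3 was below all Tp-BCC tumors, GEM8 at 34.0 CPM was among them and the other 7 were above. Car12 was 5.77-fold lower in Tp-BCC (log2 fold change −2.53 ± 0.73, adjusted p = 0.0255, edgeR), and −2.32 (0.0262) with the GC trend removed. It was −2.94 (0.0442) without TP1 and TP3 and −2.22 (0.193) without TP2 and TP4. The adjusted p was 0.0502 without TP1, 0.0772 without TP2 and 0.0799 without TP4. Car12 varied more between GEM-BCC tumors than 98.2% of all tested genes (SD of log2 CPM 1.76), but not in Tp-BCC (SD 0.49).

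Beside these values, markers of suprabasal and cornifying epidermis summed to 154 to 796 CPM in GEM-BCC and 69.6 to 116 CPM in Tp-BCC. Of the 10 tested markers 5 were lower in Tp-BCC, against 8.35% of all tested genes. The count was 5 without TP1 and TP3 (23.8% of all genes), 1 without TP2 and TP4 (4.51%) and 6 with the GC trend removed (13.3%). Of the defining markers, Krt1 was at 0.18 to 0.714 CPM in the Tp-BCC tumors and Klk7 at 0 in TP1 to TP3. Genes so low in Tp-BCC can pass the count filter only with GEM-BCC tumors, which leaves little room for any call but lower. The lowest sum in GEM-BCC, 154 CPM, was that of GEM3, which also had the lowest Car12. The part of these cells in the Car12 difference was not tested, and in bulk tissue fewer cells of a type and less RNA per cell cannot be told apart.

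Of the secreted factors, Vegfa was at 45 to 149 CPM in GEM-BCC (median 65.1) and at 64.1, 64.2, 88.6 and 50.9 CPM in Tp-BCC. GEM2 was far above the rest and the Tp-BCC tumors lay among the others (log2 fold change −0.08 ± 0.29, adjusted p = 0.878, edgeR). Adm, which encodes adrenomedullin, a vessel-dilating peptide, was low, at 0.647 to 5.41 CPM in GEM-BCC and 2.93 to 3.89 CPM in Tp-BCC (log2 fold change 0.77, adjusted p = 0.359). Endothelial markers, beside Vegfa, summed to 180 to 409 CPM in GEM-BCC and 579 to 913 CPM in Tp-BCC. Of the 12, 6 were higher in Tp-BCC and 0 lower, against 11.1% and 8.35% of all tested genes. The other 6 did not pass, among them Pecam1 (log2 fold change 0.12, adjusted p = 0.788, edgeR). Without TP2 and TP4, 4 were higher (5.87% of all genes). It was 7 without TP1 and TP3 (19.1%) and 7 with the GC trend removed (15.1%).

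Bnip3 and Bnip3l mark mitochondria for removal, and Higd1a is a small mitochondrial protein induced by hypoxia. Their log2 fold changes were −1.28 ± 0.54, −0.80 ± 0.31 and −0.65 ± 0.29, with adjusted p-values of 0.104, 0.0851 and 0.123 (edgeR). Bnip3 spanned 3.19 (GEM1) to 72.0 CPM (GEM2) in GEM-BCC and only 7.42 to 12.8 CPM in Tp-BCC. With the GC trend removed all 3 moved toward or past 0, to −0.81 (adjusted p = 0.243), −0.29 (0.335) and 0.12 (0.841). Bnip3l was −1.45 (0.00717) without TP1 and TP3 and −0.35 (0.528) without TP2 and TP4.

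The collagen hydroxylases modify collagen chains and need oxygen for it. P4ha1, a subunit of prolyl 4-hydroxylase, was at 70.5 to 178 CPM in GEM-BCC (median 109) and at 85.1, 55.9, 75.0 and 32.8 CPM in Tp-BCC. TP2 and TP4 lay below every GEM-BCC tumor, and TP1 and TP3 at the lower end of their range. P4ha1 was 1.81-fold lower (log2 fold change −0.85 ± 0.28, adjusted p = 0.045, edgeR), and its call held in 11 of 24 alternative fits, against 13 for Pgk1, 18 for Egln3 and 19 for Car12. It was −1.34 (0.00755) without TP1 and TP3 and −0.49 (0.306) without TP2 and TP4. It was −0.52 (0.0667) with the GC trend removed and −0.81 (0.0549) with counts summed per mouse, and 8 of the 13 fits with 1 tumor left out (GEM2, GEM4, GEM5, GEM6, GEM8, GEM9, TP2 or TP4) ended it, with adjusted p-values of 0.054 to 0.118. P4ha2 gave 0.08 (0.828) and Plod2, a lysyl hydroxylase, −0.53 (0.36). The log2 ratio of P4ha2 to P4ha1 was −2.98 to −1.96 in GEM-BCC and −2.48, −1.34, −2.0 and −0.019 in TP1 to TP4, so TP2 and TP4 lay above every GEM-BCC tumor and TP1 and TP3 inside their range. The difference of the means was 0.94 (exact permutation p = 0.0238, adjusted 0.0951), and it was 0.16 (0.582) without TP2 and TP4, 1.72 (0.0182) without TP1 and TP3 and 0.35 (0.0629) with the GC trend removed. Fibroblast markers, beside these genes, summed to 13420 to 50322 CPM in GEM-BCC and 16904 to 29204 CPM in Tp-BCC. Of the 10, 4 were higher and 1 lower, against 11.1% and 8.35% of all tested genes (1 and 1 without TP2 and TP4, against 5.87% and 4.51%). The part of fibroblasts in the P4ha1 difference was not tested.

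Of the last group, Ddit4, an inhibitor of mTORC1, gave −0.38 (adjusted p = 0.402), and −0.75 (0.036) with the GC trend removed. Ndrg1 gave 0.24 (0.63), Ankrd37 −1.22 (0.154) and Kdm3a, a histone demethylase induced by hypoxia, −0.65 (0.281). Kdm3a was at 46.9 to 99.2 CPM in GEM-BCC and at 70.6, 23.5, 73.6 and 9.14 CPM in TP1 to TP4. TP2 and TP4 were below every GEM-BCC tumor and TP1 and TP3 within the range. The log2 fold change was −2.08 (adjusted p = 0.00107) without TP1 and TP3 and 0.057 (0.909) without TP2 and TP4.

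**Figure D3:**
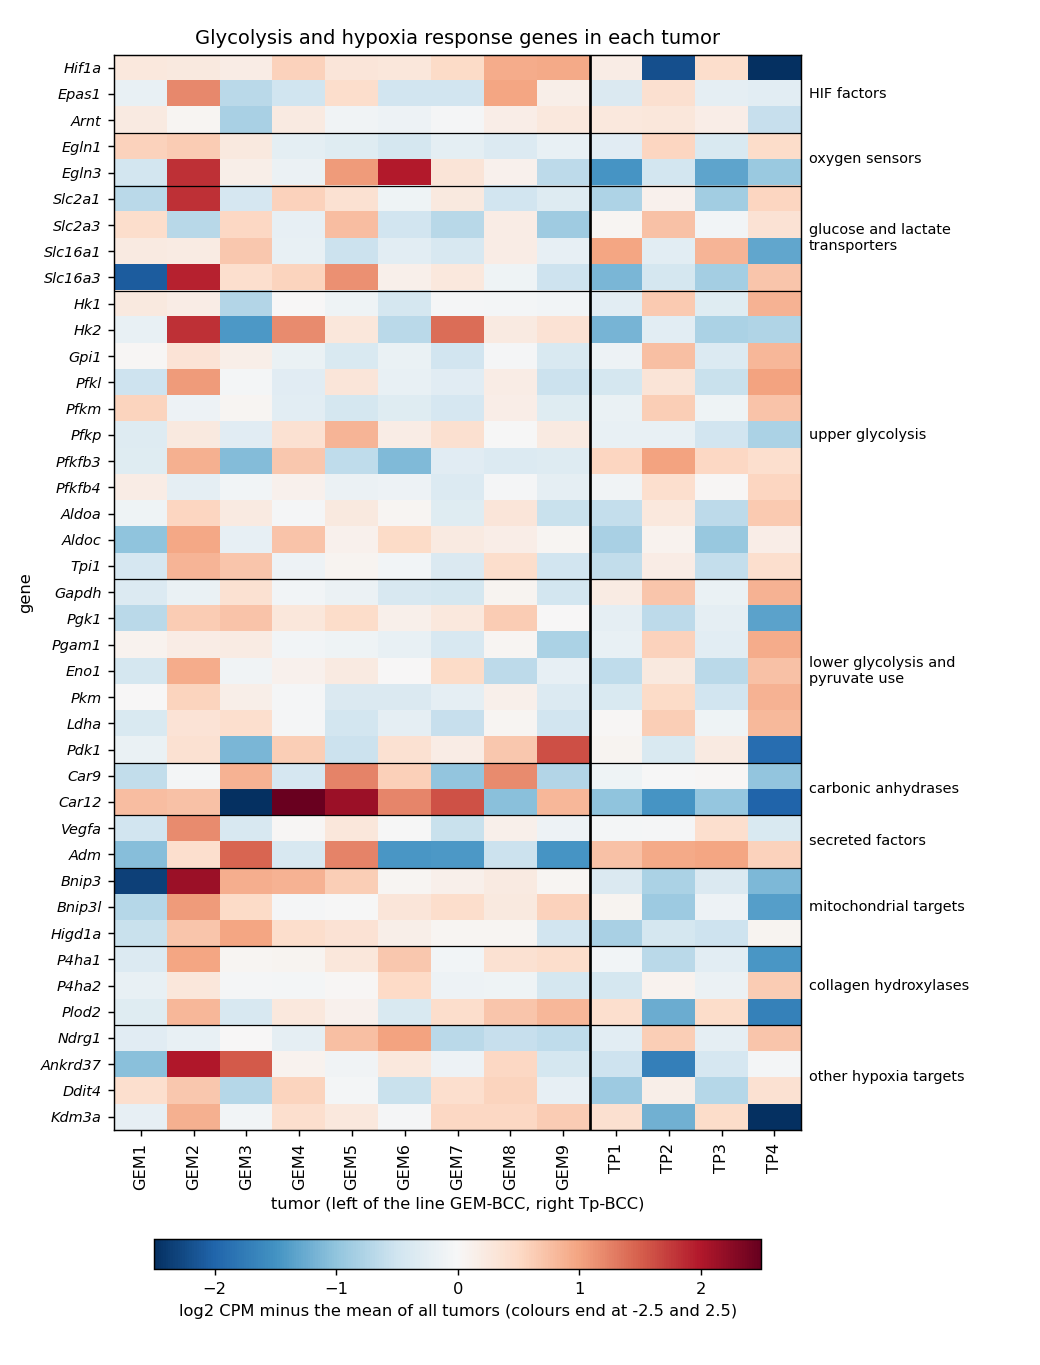
Log2 CPM of each of the 41 genes in each tumor minus its mean over all 13 tumors, with genes in rows by role and tumors in columns. GEM2 is red in most rows, and TP2 and TP4 share a pattern across rows that TP1 and TP3 do not.

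The spread between tumors was close to that of other genes. For the 41 genes the SD of log2 CPM had a median of 0.49 among GEM-BCC tumors and 0.53 among Tp-BCC tumors, against 0.44 and 0.58 for all tested genes. After Car12, the largest SDs in GEM-BCC were those of Bnip3 (1.19), Adm (1.15), Slc16a3 (1.11) and Hk2 (1.03), each above that of 90.8% or more of all genes.

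Within Tp-BCC the genes split along GC content. TP2 and TP4 both exceeded TP1 and TP3 for 23 genes, whose median GC content was 54.6%, and both lay below them for 10 genes with a median of 45.9%. Among the 23 were Hk1, Gpi1, Aldoa, Eno1, Pkm and Ldha, and among the 10 were Hif1a, Kdm3a, Plod2, Slc16a1, Pgk1 and P4ha1. Such a split in either direction was found for 80.5% of the 41 genes and 79.5% of all tested genes, so it was not particular to them. Across the 41 genes GC content and the difference between these tumor pairs had a Spearman correlation of 0.79, the same as across all 14148 genes with a GC value, where the points share libraries. With the trend removed the median SD within Tp-BCC was 0.28 for the 41 genes and 0.36 for all, but TP2 and TP4 still both exceeded TP1 and TP3 for 20 genes and lay below them for 9 (70.7%, against 66.6% of all tested genes). Without TP1 and TP3, 8 of the genes were higher in Tp-BCC (Hk1, Gpi1, Pfkm, Pfkfb4, Gapdh, Pgam1, Pkm and Ldha) and 7 lower (Hif1a, Pgk1, Car12, Bnip3l, P4ha1, Plod2 and Kdm3a), against 19.1% and 23.8% of all genes. Without TP2 and TP4, 1 was higher (Slc16a1) and 0 lower, against 5.87% and 4.51%. With the trend removed, 0 were higher and 6 lower (Hif1a, Egln3, Hk2, Pgk1, Car12 and Ddit4), against 15.1% and 13.3%. With counts summed per mouse, 0 were higher and 3 lower (Egln3, Hk2 and Car12), against 10.1% and 8.01%. Skeletal muscle markers summed to 169 CPM in TP4 and adipocyte markers to 228 CPM in TP2, against 8.23 to 18.1 and 26.2 to 33.8 CPM in the other Tp-BCC tumors, and the part of these cells in the values of TP2 and TP4 was not tested.

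**Figure D4:**
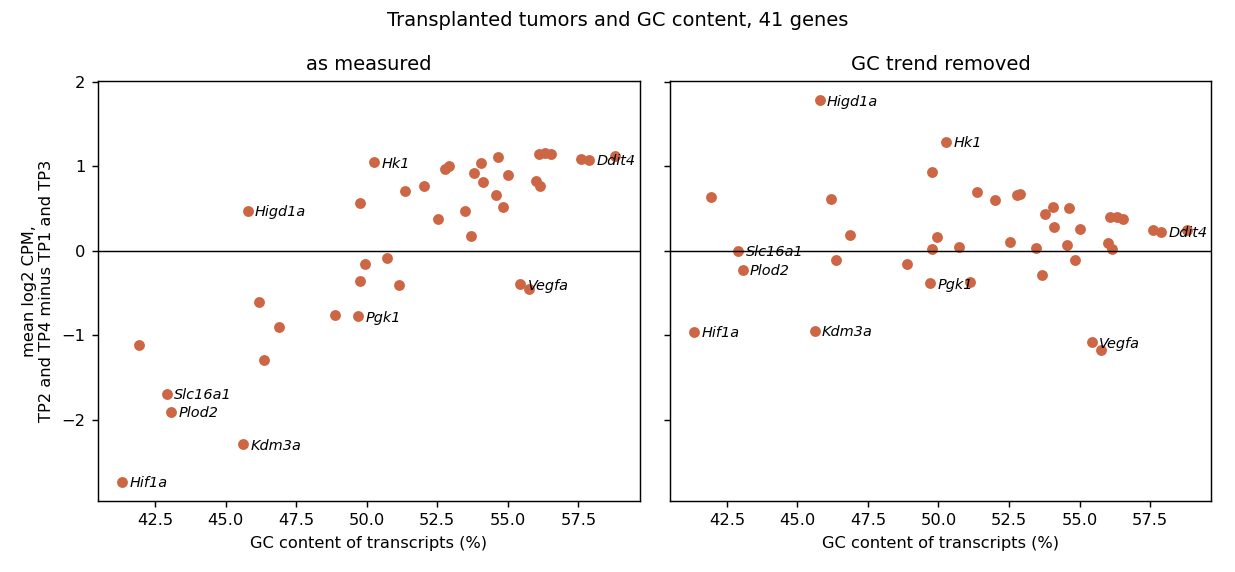
Mean log2 CPM in TP2 and TP4 minus that in TP1 and TP3, against the GC content of transcripts in percent, with 1 point for each of the 41 genes, as measured (left) and with the GC trend of each tumor removed (right). On the left the difference rises with GC content from Hif1a (−2.74 at 41.3%) to 1.16 for Pfkl at 56.3%. Car9 (−0.46 at 55.8%) and Vegfa (−0.40 at 55.4%) lie below the trend on the left and farther from 0 on the right (−1.17 and −1.09), where most other points lie nearer to 0.

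Within GEM-BCC, tumor GEM2 stood apart for these genes. It was the highest of the 9 tumors for 21 of the 41 (51.2%) and the lowest for 0, whereas it was highest for 11.4% of all tested genes. The 21 included 7 of the 11 genes of upper glycolysis, 2 of the 7 of lower glycolysis and pyruvate use, for which GEM3 was highest for 4, and 0 of the 2 carbonic anhydrases. The count was 20 with DESeq2 size factors, with library size alone and with the GC trend removed, settings in which GEM2 was highest for 10.2%, 9.06% and 10.1% of all genes. GEM2 exceeded the median of the other 8 tumors 4.15-fold for Ankrd37, 4.12-fold for Slc2a1, 3.90-fold for Bnip3, 3.32-fold for Slc16a3, 2.98-fold for Hk2 and 2.38-fold for Vegfa. It was not high for all: Hif1a was 0.905 times that median, Gapdh 1.06 times and Car9 0.836 times. GEM3, from the same mouse, was highest for 7 genes and lowest for 9, and its Hk2 was 39.7 CPM, against 386 in GEM2. As a single tumor GEM2 allows no test. Its summed endothelial markers (180 CPM) were the lowest and its summed red blood cell markers (322 CPM) the highest of the 9 GEM-BCC tumors. GEM3 was close to it in red blood cell markers (288 CPM, the other GEM-BCC tumors 30.6 to 134 CPM) but not in endothelial markers (385 CPM). The part of these cells in the GEM2 values was not tested.

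**Figure D5:**
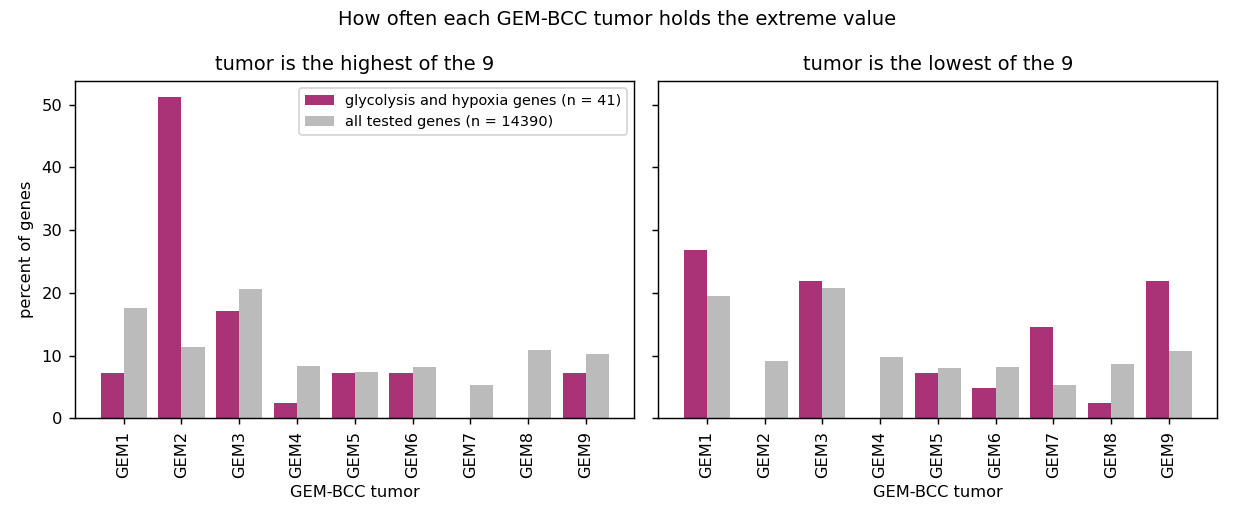
Percent of genes for which each GEM-BCC tumor was the highest (left) or the lowest (right) of the 9, for the 41 glycolysis and hypoxia genes and for all 14390 tested genes. GEM2 holds the highest value of 51.2% of the 41 genes and the lowest of none.

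Of 123 further genes of these pathways, listed by role, 116 could be tested, and 11 were higher and 9 lower in Tp-BCC, shares near the background of all genes. The counts were 23 and 26 without TP1 and TP3, against 19.1% and 23.8% of all genes. They were 6 and 6 without TP2 and TP4 (5.87% and 4.51%) and 17 and 15 with the GC trend removed (15.1% and 13.3%). Among 45 further hypoxia targets 4 were higher and 5 lower, among them Klf7, a transcription factor (log2 fold change 3.62), Cxcr4, a chemokine receptor (1.76), and Rcor2 (1.21), and in the other direction Bhlhe41, a clock and hypoxia repressor (−2.96), Narf (−1.68) and Pnrc1 (−1.52). These 6 were named by smallest adjusted p, and for them the models did not overlap. Bhlhe41 was at 53.9 to 290 CPM in GEM-BCC and 17.8 to 21.8 CPM in Tp-BCC. Of the 45, 4 higher and 4 lower genes did not overlap, against 5.5% and 4.45% of all tested genes. Of 14 genes of HIF degradation and co-factors, Arnt2, a relative of Arnt, was higher (3.09), at 0 to 1.58 CPM in GEM-BCC and 3.53 to 5.01 CPM in Tp-BCC. Without TP2 and TP4, 3 of the 45 were higher and 4 lower. In that setting 0 of the 14 were higher or lower, so the Arnt2 call was not kept.

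Among 14 other glycolysis genes Tigar, which diverts glucose 6-phosphate to the pentose phosphate pathway (1.24), and Hk3 (1.31) were higher, and of 7 pentose phosphate genes Tkt, transketolase (0.96), was higher. Hk3 and Tigar were low in GEM-BCC, at no more than 1.97 CPM and 5.37 CPM. Of 13 glycogen and gluconeogenesis genes Pgm2 (1.11) and Pygb, glycogen phosphorylase (0.76), were higher, and Ppp1r3c (−1.74) and Gbe1, the branching enzyme (−1.37), lower. Of 11 other transporters Slc2a10 (0.99) was higher and Slc2a9 (−1.21) and Slc5a1 lower. Slc5a1, a sodium-coupled glucose carrier, had 0 to 117 counts in GEM-BCC and at most 1 in Tp-BCC. It passed the count filter through GEM-BCC tumors alone, so it could only be called lower. Without TP2 and TP4, 1 of the 14 other glycolysis genes and 1 of the 7 pentose phosphate genes were higher. Of the 13 glycogen and gluconeogenesis genes 1 was then higher and 1 lower, and of the 11 transporters 0 were higher and 1 lower. Some of these calls were therefore not kept. None of the 12 genes of pyruvate dehydrogenase, its regulators and mitochondrial pyruvate entry passed the test. Their log2 fold changes were −0.58 to 0.37, but 3 were lower without TP1 and TP3 and 3 higher with the GC trend removed. GEM2 was the highest GEM-BCC tumor for 28 of the 116 (24.1%, against 11.4% of all genes) and GEM3 for 29 (25%, against 20.6%). GEM2 was highest for 16 of the 45 further hypoxia targets (35.6%), 2 of the 14 other glycolysis genes (14.3%) and 1 of the 13 glycogen and gluconeogenesis genes (7.69%).

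Near-identical copies bear on at least 4 of the genes, whose values are uncertain to that extent. Gapdh shares up to 78.0% of its 100-base words with a single pseudogene, Pgk1 67.0% with Pgk1-rs7 and 66.8% with Gm5537, Eno1 58.6% with Eno1b and Pgam1 39.7% with Pgam1-ps2. Eno1b was counted at 0 to 12 reads in a tumor. The copies of Pgk1 are not analysed here, so reads placed with them could have changed the Pgk1 level.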

How the data were processed

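RNA of 13 mouse tumors, 9 GEM-BCC and 4 Tp-BCC, had been enriched for poly(A) and sequenced. Per the labels, the authors used Bowtie2 2.3.4.3 and RSEM 1.3.1 with GRCm39, and the deposited values are RSEM expected counts per gene, not normalized. Total counts are given with the results and set the precision. The genes and lists were chosen with earlier results of these data known.

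Expected counts were rounded. Genes with a value in all 13 tumors and at least 10 counts in at least 4 were tested with edgeR 4.0.16 in R 4.3.3 (TMM, robust quasi-likelihood F test, 2-sided, no covariate), and p-values were adjusted by Benjamini-Hochberg over all 14390 genes. The script was tested on simulated data. The SE is the log2 fold change over the root of F. Log2 CPM used a prior count of 2. Ratios of related genes were compared by exact 2-sided permutation over 715 splits. Samples of a group are tumors, of which 2 pairs share a mouse, so p-values measure the spread between tumors.

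GC content is the median over transcripts in GENCODE vM21, and its lowess trend (span 0.3) was removed through offsets. Genes named in full were those past an adjusted p of 0.05 and Hif1a, Epas1, Vegfa, Slc2a1, Ldha, Pdk1, Car9 and Egln3, and of each further list up to 3 per direction by smallest adjusted p. Others were named after their values were seen. Alternatives were DESeq2 1.42.0, other scaling, filters, thresholds, sums per mouse, a replicate block, missing values set to 0, copies added and tumors left out. Added after the data were seen were ratios and further lists without TP1 and TP3, without TP2 and TP4 or with the GC trend removed, and GEM2 ranks under other scalings.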

Additional observations from a re-analysis of the deposited data

Results flagged for a closer look

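Within each model, the highest or lowest tumor of each of the 41 genes was checked for a gap to its nearest neighbour that is large against the range of the model. Of 82 groups of tumors checked, 6 had such a gap, and chance gives about 1 in 20. Of the GEM-BCC tumors, GEM2 was far above the rest for Slc2a1 (113 CPM, next 47.7) and Vegfa (149 CPM, next 79.9), GEM1 far below for Bnip3 (3.19 CPM, next 16.9) and GEM3 far below for Arnt (57.0 CPM, next 92.0). Of the Tp-BCC tumors, TP4 was far below the rest for Arnt (67.9 CPM, next 113) and for Car9 (0.286 CPM, next 0.589).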

How the results depend on the processing

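The number of genes lower in Tp-BCC, 4 with all tumors, was 2 with library size alone (8.21% of all genes), 8 by DESeq2 (which also called 1 higher), 7 without TP1 and TP3 (with 8 higher), 0 without TP2 and TP4 (with 1 higher) and 1 with the added threshold of 2 on the absolute log2 fold change. It was 3 with counts summed per mouse and 6 with the GC trend removed. It was 4 with DESeq2 size factors (8.5% of all genes), no filter (7.29%), a stricter filter (7.17%) or missing values set to 0 (8.73%). No copy of a called gene had a value here, so adding the copies' counts could not move these calls. With each tumor left out in turn, 0 (TP4 left out, when 6.02% of all genes were lower) to 7 (GEM1 left out, 9.36%) were lower and 0 to 1 higher, the 1 being Pfkfb3 without GEM2 and Gapdh without GEM3 or TP3. In the settings given without a count of higher genes, that count was 0. Tumor numbers 1 to 4 occur in both models, and with the number as a replicate block 0 genes were lower and 0 higher, against 0.5% and 0.737% of all genes. The numbers name different mice in different batches, and tumors sharing a number did not deviate together (correlations −0.38, −0.12, −0.10 and −0.18), so the numbers do not pair the tumors. Ratios past the threshold stayed at 0 of 12 in every setting tried. Without TP1 and TP3, or without TP2 and TP4, the 55 splits allow no exact permutation p under 0.0182. A single ratio could not pass there after adjustment over 12 ratios, so the 0 in those settings does not show stability. Depth limited Car9, Ankrd37 and Adm, which had the lowest counts.

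Of the 41 log2 fold changes, those of Egln3, Pgk1, Car12 and P4ha1 kept their sign in all 24 alternative fits that could move them. The sign of the following differences, none of them called with all tumors, turned. Without TP2 and TP4 it did so for Egln1 (−0.35), Slc2a3 (−0.020), Hk1 (−0.20), Gpi1 (−0.14), Pfkl (−0.56), Pfkm (−0.059), Pgam1 (−0.14), Pkm (−0.40), P4ha2 (−0.30), Ndrg1 (−0.29), Vegfa (0.11), Plod2 (0.13) and Kdm3a (0.057). Without TP1 and TP3 it did so for Arnt (−0.094), Slc16a1 (−0.70), Slc2a1 (0.016), Aldoa (0.40), Tpi1 (0.18), Eno1 (0.41) and Ddit4 (0.062). With the GC trend removed it did so for Egln1 (−0.16), Pfkl (−0.21), P4ha2 (−0.13), Ndrg1 (−0.022) and Higd1a (0.12), with the replicate block for Egln1 (−0.22), Slc16a1 (−0.16) and Pkm (−0.047), with counts summed per mouse for Aldoa (0.010) and Eno1 (0.0069), and with library size alone for P4ha2 (−0.025). With 1 tumor left out, the ranges that cross 0 were −0.055 to 0.18 for Arnt, −0.063 to 0.26 for Egln1, −0.29 to 0.36 for Pfkl, −0.40 to 0.12 for Aldoa, −0.46 to 0.12 for Eno1, −0.084 to 0.44 for Pkm, −0.24 to 0.14 for Vegfa, −0.21 to 0.23 for P4ha2 and −0.021 to 0.32 for the log2 ratio of Bnip3l to Bnip3. The log2 ratio difference turned for Epas1 to Hif1a without TP2 and TP4 (−0.18), and without TP1 and TP3 for Slc16a3 to Slc16a1 (0.68) and Bnip3l to Bnip3 (−0.15). The cause of these changes was not tested.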
